A study of Mus musculus with 12 samples.

Results

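Kupffer cells are the resident macrophages of the liver, and their nuclei were recovered here from frozen pieces of mouse liver by single-nucleus RNA sequencing. The authors' table of nuclei named 919 nuclei of the Liver samples Kupffer cells, out of 20024 Liver nuclei and 53467 nuclei in the whole series. These 919 nuclei, all of them in author cluster 16, were taken as they stand and set against 5 other types named in Liver. Those were 14922 hepatocytes, 2472 endothelial cells, 878 stellate cells, 365 leukocytes and 220 biliary cells. The remaining Liver nuclei, outside these 6 types, belong to the Liver total but were not compared. The study compared 3 sample types from each of 8 wild-type mice, which were Liver, Cell Suspension (cells after collagenase digestion, straining and low-speed spins) and Primary Hepatocytes (the suspended cells after 24 hours on collagen). The mice were chow-fed males, described in the methods as C57BL/6NTac and in the sample labels as C57BL6J, and the cultured cells of Primary Hepatocytes were kept in medium with dexamethasone and insulin. All livers were first flushed with an EGTA solution, and each Liver piece was cut from the flushed lobe before collagenase was added and then snap-frozen. The 24 samples were tagged with hashtag antibodies, sorted as nuclei and run in 6 pools of 4 samples.

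Kupffer cells sit in the sinusoids, the narrow blood vessels of the liver, where they bind and swallow microbes, worn red cells and dying cells that the portal blood brings. They arise mostly from embryonic precursors, renew themselves in place and depend on the Csf1 receptor, on the myeloid master regulator PU.1 (Spi1) and on the oxysterol receptor LXRα (Nr1h3). Surface lectins and scavenger receptors, complement, iron recycling and a large lysosome are the parts of this programme that the gene lists follow.

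The label was first checked on 6 genes that mark Kupffer cells. Clec4f, a lectin for desialylated glycans, was at 1096 CPM in the lowest mouse, 1609 at the median and 2115 in the highest (CPM, UMIs of the gene per 1000000 UMIs of the Kupffer nuclei of a mouse, a UMI being 1 counted RNA molecule). Cd5l, a secreted scavenger-receptor family protein also called AIM, was at 653 CPM in the lowest mouse, 1089 at the median and 1744 in the highest. Vsig4, the complement receptor of the immunoglobulin family, was at 507 CPM in the lowest mouse, 699 at the median and 1001 in the highest. In every mouse these 3 genes were higher in Kupffer nuclei than in any of the 5 other types. Timd4, a receptor for phosphatidylserine on dying cells, was at 336 CPM in the lowest mouse, 538 at the median and 624 in the highest. Cd163, the haptoglobin-haemoglobin receptor, was at 255 CPM in the lowest mouse, 550.1 at the median and 689 in the highest. Csf1r, the growth factor receptor on which macrophages depend, was at 407 CPM in the lowest mouse, 582 at the median and 713 in the highest. The levels of these genes again did not overlap with those of another type in any mouse.

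The highest of the other types was the leukocytes for 5 of the 6 markers, with 16.3 CPM of Clec4f, 13.0 of Cd5l, 9.86 of Vsig4, 7.31 of Timd4 and 9.51 of Cd163, which put Kupffer nuclei 97.0, 83.5, 75.0, 69.9 and 53.2 times higher. Most of those leukocyte UMIs came from mouse 7, whose leukocytes held 18 of the 26 for Clec4f. Without mouse 7, and with the highest other type chosen again, the ratios were 216, 182, 202, 131 and 92.7. That type was then no longer the leukocytes for Clec4f (biliary nuclei) or for Cd5l and Vsig4 (endothelial nuclei). Of 85 leukocyte nuclei of mouse 7, 2 carried 3 or more of the markers, as did 2 of the 280 leukocyte nuclei of the other 7 mice. For Csf1r the next type was the biliary nuclei at 58.8 CPM (38 UMIs), 9.72 times lower than Kupffer nuclei. These genes served the naming of the cells, so the values describe the label and carry no test.

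**Figure D1:**
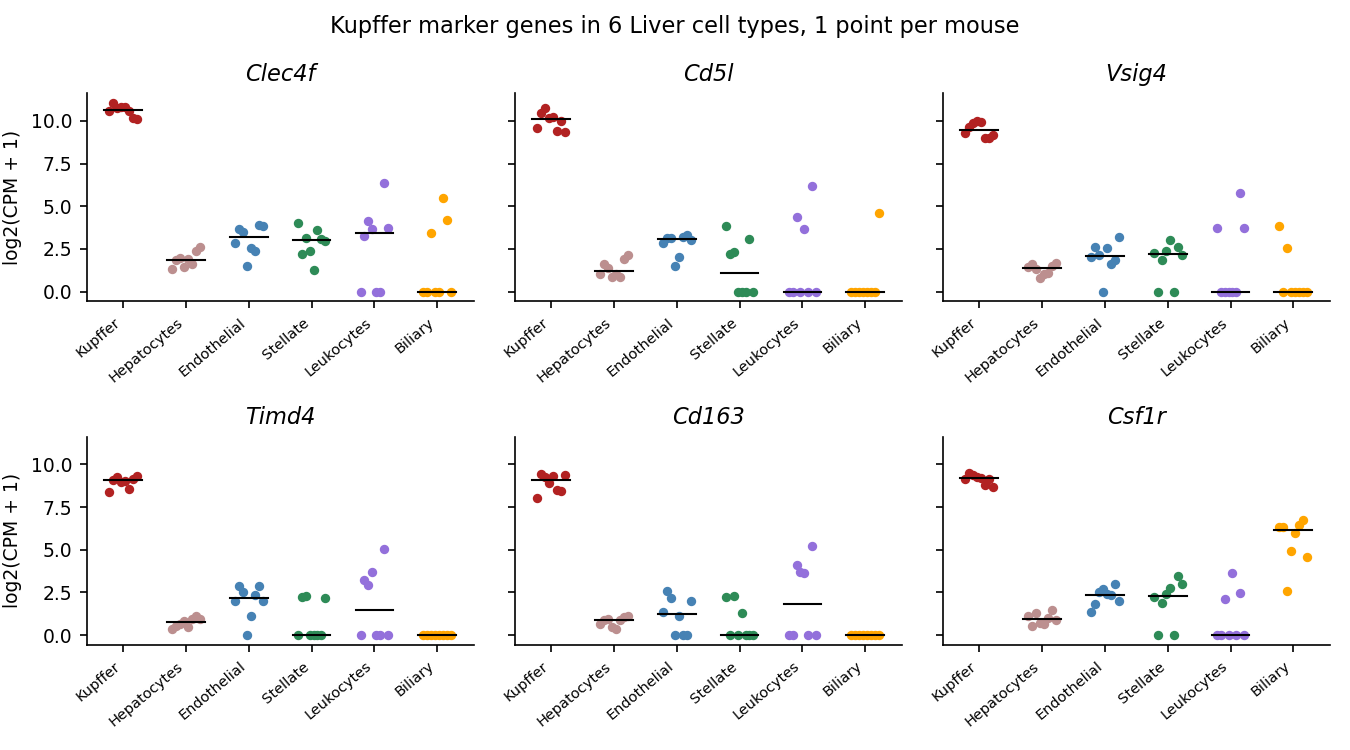
The CPM of the 6 Kupffer markers (log2 of CPM + 1, vertical axis) in each Liver cell type, with 1 point for each of 8 mice and a black line at the median. For every marker the 8 Kupffer points lie above all points of the 5 other types, with Clec4f at a mean of 1580.2 CPM in Kupffer nuclei.

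After every nucleus was thinned to 1000 UMIs, which left 815 Kupffer and 14424 hepatocyte nuclei, 69.1% of Kupffer nuclei held a UMI of Clec4f, against 0.458% of hepatocyte nuclei. The shares were 59.3% and 0.229% for Cd5l, 45.5% and 0.229% for Vsig4, and 37.9% and 0.118% for Timd4. For Cd163 they were 35.3% and 0.146%, and for Csf1r 44.3% and 0.153%. Hepatocytes should lack these genes, and in the 4 other types the Clec4f share was 0.649% to 1.86%, while for Csf1r biliary nuclei reached 5.91%. Without thinning, at median depths of 2740 UMIs in Kupffer nuclei and 7740 in hepatocyte nuclei, the Kupffer shares ran from 52.2% for Cd163 to 78.2% for Clec4f.

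The promoters of 3 Kupffer genes are printed because they carry letters bound by PU.1 or by PU.1 with an interferon regulatory factor, and both Spi1 and Irf8 were high in these nuclei, with Irf8 in part through nuclei that lack the Kupffer markers. Each line holds the 250 bases before the RefSeq transcription start on GRCm38.p6, 5′ to 3′ on the strand of the gene. Cd5l lies at chr3:87357631-87357880 on the plus strand, and its capitals mark the PU.1 core GAGGAAG read on the opposite strand, from base -67. Timd4 lies at chr11:46810549-46810798 on the plus strand, and its capitals mark the composite of PU.1 and an interferon regulatory factor, GGAA followed 2 bases on by GAAA, from base -72. C1qc lies at chr4:136892915-136893164 on the minus strand, with the PU.1 core again on the opposite strand, from base -194.
Cd5l: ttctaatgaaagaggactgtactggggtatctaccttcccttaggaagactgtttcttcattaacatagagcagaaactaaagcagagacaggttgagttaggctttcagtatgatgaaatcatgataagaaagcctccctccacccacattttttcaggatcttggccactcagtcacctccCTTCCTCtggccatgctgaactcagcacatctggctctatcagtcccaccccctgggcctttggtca
Timd4: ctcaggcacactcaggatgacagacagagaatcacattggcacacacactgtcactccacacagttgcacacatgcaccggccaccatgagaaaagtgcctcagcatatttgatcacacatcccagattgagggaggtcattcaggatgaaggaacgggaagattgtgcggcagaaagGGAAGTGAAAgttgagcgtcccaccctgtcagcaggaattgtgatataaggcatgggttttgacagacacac
C1qc: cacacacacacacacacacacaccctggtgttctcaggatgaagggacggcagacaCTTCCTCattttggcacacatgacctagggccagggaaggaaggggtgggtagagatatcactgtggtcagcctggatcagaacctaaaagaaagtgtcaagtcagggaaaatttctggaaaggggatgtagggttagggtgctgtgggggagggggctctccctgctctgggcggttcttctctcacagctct

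Both strands were searched, and the motifs were counted separately, so 1 stretch of bases could count for both. GAGGAAG stood in 51 of 331 promoters of the genes highest in Kupffer nuclei (15.4%), against 10.6% of 32851 promoters of all genes and 12.0% of 4290 promoters of genes with at least 50 CPM in Kupffer nuclei. The composite stood in 11 of the 331 (3.32%), against 2.30% and 2.42%. Of the 5 marker promoters in the table, 1 held the first motif and 1 the second. These are matches of letters, not measured binding.

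A gene was counted as highest in Kupffer nuclei when it reached a mean of 50 CPM there, was above each of the 5 other types in every mouse and had at least 2 times the mean of the next type. This held for 335 of 24537 genes with at least 10 UMIs in Liver nuclei (1.37%), or 8.43% of the 3976 genes that reached 50 CPM in Kupffer nuclei. The types were named from these same genes, so the count is a description. The next type was the leukocytes for 132 of the genes, the endothelium for 68, biliary cells for 62, stellate cells for 45 and hepatocytes for 28. Marker sums in the leukocytes were 3277 CPM for T and NK cells, 2982 for B cells, 429 for monocytes, 6.67 for dendritic cells and 0 for neutrophils. None of the 5 types was named for other myeloid cells, so the rule does not separate Kupffer cells from those. Without the level and ratio limits, 533 genes (2.17%) were above all other types in 8 of 8 mice and 22 (0.0897%) were below all of them.

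Of the 20 genes with the largest ratio, several encode surface receptors, and Siglech, second in that order, is described with the dendritic cell markers. Treml4, a TREM-family receptor, was at 40.1 CPM in the lowest mouse, 76.7 at the median and 104 in the highest, with 0.179 CPM in hepatocyte nuclei (24 UMIs). Pilra and Pilrb1, paired immunoglobulin-like receptors of which the first is inhibitory, were at 161 ± 38.9 CPM and 78.1 ± 26.1 CPM (SD, n = 8 here and for each mean ± SD below that names no other number). Adgre1, which encodes the macrophage antigen F4/80, was at 642 CPM in the lowest mouse, 1109.8 at the median and 1337 in the highest, with 8.60 CPM in leukocyte nuclei (10 UMIs). Siglec1, a sialic acid receptor that captures coated particles, was at 133 ± 33.8 CPM, with 2 UMIs in leukocytes, and its relative Siglece was at 53.2 ± 13.1 CPM. Clec4a3, a C-type lectin receptor, was at 64.8 ± 28.8 CPM, and Klra2, a Ly49-family receptor, at 323 ± 81.1 CPM. Lilrb4a and Lilr4b, neighbouring receptor genes, were at 201 ± 44.8 CPM and 94.9 ± 18.4 CPM. None of the Lilrb4a UMIs was unspliced, against 18.2% for Lilr4b and 72.0% for Kupffer UMIs as a whole. Spliced UMIs made up only 25.2% for Lilrb4a and 27.9% for Lilr4b, and the rest could not be assigned to either state. These receptor families hold near-identical copies, so the split of reads between copies is uncertain.

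Channels and another membrane protein were also among these 20 genes. Trpm2, a calcium-permeable channel opened by ADP-ribose, was at 336 CPM in the lowest mouse, 427 at the median and 535 in the highest, against 3.49 CPM in leukocyte nuclei (2 UMIs). Kcna2, a voltage-gated potassium channel better known from neurons, was at 109 ± 33.0 CPM, and 0.877% of its UMIs were unspliced. Tmem26, a membrane protein, was at 145 ± 32.4 CPM, with 1 UMI in leukocytes, the next type.

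A run of hyaluronidase genes on chromosome 6 stood out by position. Hyal6 (chr6:24733245-24745452), Hyal4 (chr6:24748329-24767662), Spam1 (chr6:24791188-24801048) and Hyal5 (chr6:24857997-24891958) lie on the plus strand of GRCm38 within 158.714 kb. Hyal5 was at 307 CPM in the lowest mouse, 554 at the median and 742 in the highest. Hyal6 was at 146 ± 36.4 CPM, Hyal4 at 134 ± 32.4 CPM and Spam1, named after its values were seen because of its position, at 66.3 ± 22.6 CPM. All 4 passed the rule, and the next type held between 1 and 6 UMIs of each. The unspliced share of their UMIs was 76.3% for Hyal6, 84.5% for Hyal4, 80.0% for Spam1 and 93.6% for Hyal5. Hyaluronidases cut hyaluronan, and several of these members are best known from sperm. They are copies of 1 family side by side, so the share of reads that belongs to each is uncertain.

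Transcription factors came next. Of 10 factors on a list for Kupffer cells, 4 were highest in these nuclei by the rule. Spi1 was at 274 CPM in the lowest mouse, 352 at the median and 468 in the highest, with 11.7 CPM in leukocyte nuclei (14 UMIs). Nr1h3, the LXRα gene, was at 116 CPM in the lowest mouse, 226 at the median and 245 in the highest, against 40.8 CPM in hepatocyte nuclei. Spic, a PU.1 relative linked to red pulp and haem-handling macrophages, was at 60.4 ± 18.7 CPM, with 3 UMIs in leukocytes. Irf8, a partner of PU.1, was at 161 CPM in the lowest mouse, 194 at the median and 296 in the highest, against 44.3 CPM in leukocyte nuclei, and its mean of 213 CPM was 142 CPM without the 80 nuclei that held no UMI of the 6 markers, where those of Spi1, Nr1h3 and Spic were higher, at 105%, 108% and 109% of their level. The remaining 6 did not pass. Maf reached 371 CPM in Kupffer nuclei and 899 CPM in endothelial nuclei, and Zeb2 3808 CPM and 3689.6 CPM in stellate nuclei. Tfec was 1.74 times the endothelial mean, and the values of Rxra (382 CPM) and Id3 (23.3 CPM) were below those of the next type.

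Several scavenger and lectin receptors were shared with the sinusoidal endothelium, and 3 of 10 passed the rule (Siglec1, Clec4n and Fcna). Clec4n, the dectin-2 gene, was at 56.4 ± 20.9 CPM, and Fcna, the ficolin A gene of the lectin pathway, at 73.4 ± 28.7 CPM against 26.3 CPM in stellate nuclei. Msr1, scavenger receptor A, was at 523 ± 137 CPM and the mannose receptor Mrc1 at 1152 ± 189 CPM, against 443 CPM in endothelial nuclei and 1282 CPM in endothelial nuclei. Stab1 and Cd36 were higher in the endothelium, at 428 and 316 CPM, than in Kupffer nuclei, at 42.3 and 111 CPM. Marco, a receptor for unopsonised particles, was at 0 CPM in the lowest mouse, 45.1 at the median and 94.5 in the highest. Clec1b and Clec9a, the latter from the dendritic cell list, were both above every other type in 8 of 8 mice, at 212 ± 55.9 CPM and 261 ± 42.5 CPM. With ratios to the endothelium of 1.93 and 1.90 they missed the limit. These 2 genes overlap by 474 bases on the plus strand of chromosome 6 (chr6:129397297-129409335 and chr6:129408862-129424763), so their reads may be shared.

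Genes for the uptake of dying cells were abundant, and 2 of 8 passed the rule. Axl, a TAM receptor kinase, was at 201 CPM in the lowest mouse, 354 at the median and 392 in the highest, against 42.9 CPM in stellate nuclei. Itgav, the αV integrin, was at 326 ± 112 CPM, against 103 CPM in stellate nuclei. Mertk, the other TAM receptor, was at 1878 ± 323 CPM and above all types in 8 of 8 mice, at 1.97 times the endothelial mean. The engulfment adaptors Elmo1 and Dock2 were at 1191 and 816 CPM, and the leukocytes held 1265 and 1889 CPM. Of the ligands that bridge TAM receptors to dying cells, Gas6 was at 8.43 CPM in Kupffer nuclei and 646 CPM in biliary nuclei, and Pros1 at 93.4 CPM and 323 CPM in endothelial nuclei.

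**Figure D2:**
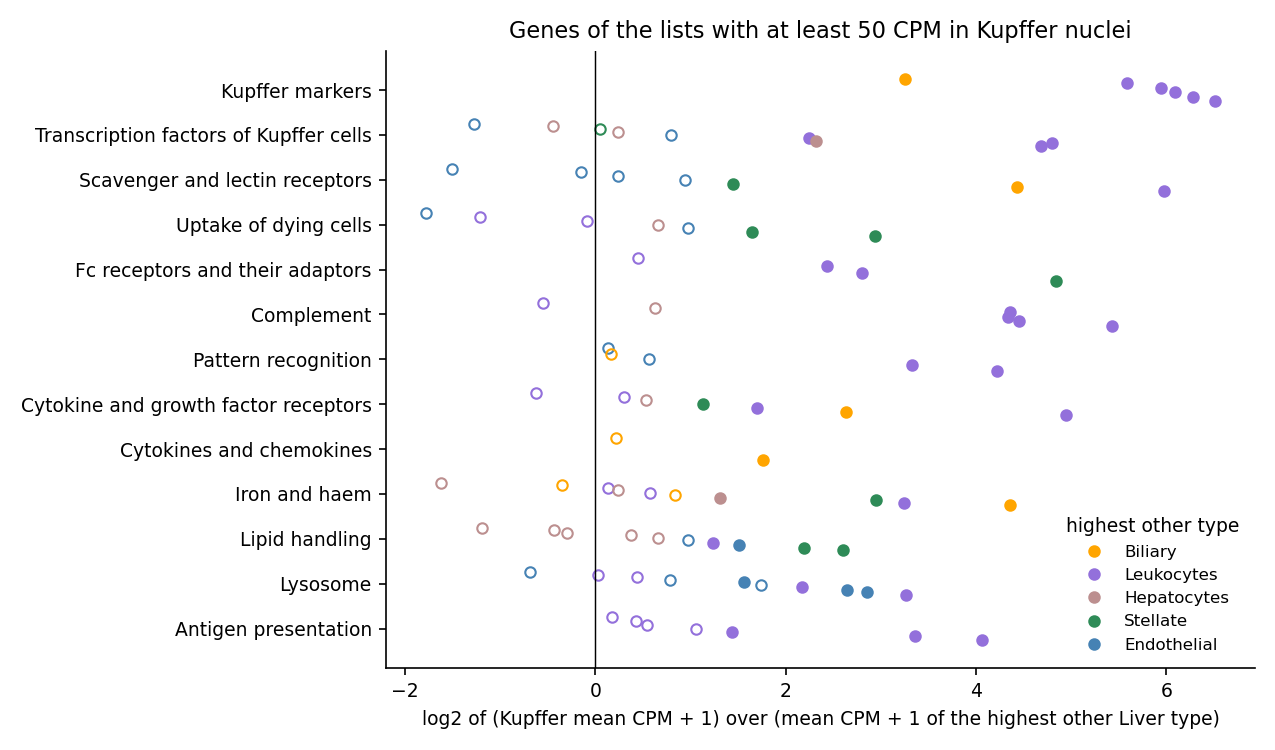
Genes of 13 lists with a mean of at least 50 CPM in Kupffer nuclei, placed by log2 of the Kupffer mean over the mean of the highest other Liver type (1 CPM added to both), with the colour naming that type. Filled points passed the rule for genes highest in Kupffer nuclei and open points did not, with Clec4f farthest right at 97.0 times the leukocyte mean and Csf1r, at 9.72 times the biliary mean, left of the 5 other markers.

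Activating Fc receptors for IgG signal through the adaptor Fcer1g, while Tyrobp is the adaptor of TREM and related receptors, and 3 of 7 genes on their list passed the rule. Fcgr4, which binds IgG2, was at 50.9 ± 16.7 CPM, Fcer1g at 26.7 CPM in the lowest mouse, 95.4 at the median and 148 in the highest and Tyrobp at 61.9 ± 25.3 CPM. Fcgr1 and Fcgr3 were above every other type in 8 of 8 mice, at 47.3 and 41.9 CPM, under the 50 CPM limit. The inhibitory receptor Fcgr2b was at 12.6 CPM in Kupffer nuclei and 398 CPM in endothelial nuclei. Syk, the kinase downstream, was at 470.1 CPM against 345 CPM in leukocyte nuclei.

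Complement genes gave 4 of 10 by the rule. The 3 chains of C1q were at 53.5 CPM in the lowest mouse, 141 at the median and 259 in the highest for C1qa, 120.4 CPM in the lowest mouse, 219 at the median and 322 in the highest for C1qb, and 53.5 CPM in the lowest mouse, 122 at the median and 203 in the highest for C1qc. Leukocytes, the next type, held 6 UMIs of each chain. Cfp, the properdin gene, was at 13.4 CPM in the lowest mouse, 126 at the median and 168 in the highest. The complement receptors C3ar1 and C5ar1 were at 48.6 and 11.5 CPM, with C3ar1 above every other type in 8 of 8 mice. C6 was at 989 ± 328 CPM in Kupffer nuclei and 639 CPM in hepatocyte nuclei. The integrin chains Itgam and Itgb2 were at 34.6 and 84.5 CPM, and leukocytes held 20.3 and 124 CPM.

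Sensors of microbes were mostly present in small amounts, and their list summed to 668 ± 123 CPM in Kupffer nuclei, against 312 CPM in endothelial nuclei, the next type. Tlr7, the receptor for single-stranded RNA, was at 53.5 CPM in the lowest mouse, 119 at the median and 181 in the highest, and Nlrp3, the inflammasome sensor, at 87.7 ± 19.8 CPM, and these 2 of 11 genes passed the rule. Tlr8 and Tlr13, which also sense RNA, were above all types in 8 of 8 mice at 49.6 and 21.8 CPM. Tlr4, the lipopolysaccharide receptor, was at 105 ± 44.6 CPM, 1.49 times the endothelial mean. Of its helpers, Ly96 was at 70.6 CPM and Cd14 and Myd88 at 4.79 and 5.21 CPM. Nod1, at 194 CPM the highest of the list in Kupffer nuclei, did not pass the rule, and Tlr9 was at 0.676 CPM.

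Among 9 receptors for cytokines and growth factors, 4 passed the rule. Csf2ra and Csf2rb, the chains of the GM-CSF receptor, were at 107 ± 34.9 CPM and 120.3 ± 30.5 CPM. Il10ra was at 176 ± 28.2 CPM against 53.4 CPM in leukocyte nuclei, and Tgfbr1 at 339.7 ± 62.0 CPM against 155 CPM in stellate nuclei. Il6ra was at 351 CPM and 242 CPM in hepatocyte nuclei, and Tgfbr2 was lower than in leukocytes, at 219.6 against 339 CPM.

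Cytokine RNA was scarce in tissue nuclei. Of 13 cytokine genes with enough UMIs, 1 passed the rule, Il18bp, the decoy for interleukin-18, at 54.6 ± 23.5 CPM. Il18 itself was at 110.1 ± 37.2 CPM against 94.7 CPM in biliary nuclei. Il1b was at 0 CPM in the lowest mouse, 36.2 at the median and 89.3 in the highest, a wide spread that reached 0. Ccl6 and Ccl24 were above every other type in 8 of 8 mice at 25.7 and 14.8 CPM. Tnf, Il6, Ccl2, Ccl3, Ccl4, Cxcl2 and Il10 had 4 to 10 UMIs each in all 919 nuclei. None of 13 early response genes passed the rule, with Jun at 39.4 CPM against 118 CPM in biliary nuclei and Fos at 10.5 against 44.3 CPM in biliary nuclei.

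Iron handling was led by the iron exporter ferroportin. Slc40a1 was at 980.3 CPM in the lowest mouse, 1442 at the median and 2099 in the highest, 7.78 times the stellate mean of 191 CPM. Slc11a1, the phagosomal metal transporter NRAMP1, was at 64.5 CPM in the lowest mouse, 139 at the median and 180.0 in the highest, with 5.45 CPM in biliary nuclei (4 UMIs). Hmox1, the inducible haem oxygenase, was at 60.9 ± 25.3 CPM, and Blvrb, a biliverdin reductase, at 156 ± 30.3 CPM against 62.3 CPM in hepatocyte nuclei. These 4 of 11 genes passed the rule. The ferritin chains were near the level of other types, with Fth1 at 131 against 119 CPM in leukocyte nuclei and Ftl1 at 216 against 183 CPM in hepatocyte nuclei. Transferrin (Trf) was at 463 CPM, 32.5% of the hepatocyte level.

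Transferrin has to be read beside the hepatocyte RNA in these nuclei. The summed level of 7 hepatocyte markers was 3210.2 ± 868 CPM in Kupffer nuclei and 12479.6 ± 1622 CPM in hepatocyte nuclei, and its mean ranged from 1966 to 4146 CPM in the 4 other types. Single markers stood in Kupffer nuclei between 17.1% (Hal) and 42.5% (Apoa1) of their hepatocyte level, with Alb at 38.7%. The 32.5% of Trf lies inside that range. The part of this RNA in Trf, C6, Apoe, Apoc1 and other genes that hepatocytes also express was not tested.

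Lipid genes passed the rule in 4 of 11 cases. Lpl, lipoprotein lipase, was at 17.4 CPM in the lowest mouse, 111 at the median and 179 in the highest, and Pltp, the phospholipid transfer protein, at 188 ± 38.7 CPM against 40.3 CPM in stellate nuclei. Lipa and Npc2, which free cholesterol in the lysosome, were at 239 ± 86.4 CPM and 97.1 ± 29.0 CPM. The LXR targets Abca1 and Abcg1, cholesterol exporters, were at 583 and 242 CPM, 1.30 and 1.98 times the next type. Apoe was at 481 CPM in the lowest mouse, 1088 at the median and 1657 in the highest, against 701 CPM in hepatocyte nuclei. Ch25h, cholesterol 25-hydroxylase, had a UMI in 0 of 919 nuclei, which allows a share of nuclei with a UMI of up to 0.326%.

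Lysosomal genes, mostly proteases, gave 5 of 12 by the rule. Ctsb was at 604 ± 103 CPM, Lgmn at 697 ± 99.5 CPM, Ctss at 336 ± 74.7 CPM and Hexa at 127 ± 21.1 CPM. Ctsc, the activator of granule proteases, was at 348 CPM in the lowest mouse, 794 at the median and 1185 in the highest, 9.70 times the leukocyte mean. Ctsd was 3.43 times the endothelial mean without being above every type in each mouse. Ctsl was 37.6% of the hepatocyte level, and Lamp2 was at 451 CPM against 728 CPM in endothelial nuclei.

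For antigen presentation the ratios to leukocytes were larger for the co-stimulatory ligands than for the class II genes. Cd86 was at 254 CPM in the lowest mouse, 451 at the median and 528 in the highest, 17.4 times the leukocyte mean, and Cd80 at 85.7 ± 29.9 CPM against 7.47 CPM in leukocyte nuclei (8 UMIs). Ciita, the class II transactivator, was at 146 ± 59.4 CPM against 53.6 CPM in leukocyte nuclei, and these were the 3 of 9 that passed. Cd74, H2-Aa, H2-Ab1 and H2-Eb1 were at 311, 138, 108 and 89.4 CPM, and leukocytes held 231, 94.3, 51.2 and 79.3 CPM.

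Markers of other cells were looked for in the same way. The summed level of 5 T and NK cell markers was 23.8 CPM in Kupffer nuclei and 3277 in leukocytes, and that of 7 sinusoidal endothelial markers was 328 CPM against 9575 in endothelial nuclei. The 5 B cell markers summed to 732 CPM against 2982 in leukocytes, and 719 CPM of it was Bank1, a signalling adaptor known from B cells, while Cd79a, Ms4a1, Pax5 and Ebf1 stayed between 0.296 and 6.84 CPM. Among 6 monocyte markers, Plac8 was at 97.6 CPM and Ccr2 at 36.9, and Ly6c2, S100a4 and Chil3 were between 0.592 and 2.22 CPM, and those of lipid-associated macrophages ran from 0.617 CPM (Spp1) to 4.75 (Cd9). Csf3r, listed as a neutrophil gene, was at 93.7 ± 16.8 CPM and passed the rule, while the other 3 neutrophil markers had 1 to 6 UMIs each in all 919 nuclei. Of 5 dendritic cell markers, Flt3 and Siglech passed.

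Flt3 and Siglech led to the nuclei that lack the Kupffer markers. Of the 919 nuclei, 80 (8.71%) had no UMI of any of the 6 markers, 146 (15.9%) had 1 or 2 markers and 693 (75.4%) had 3 or more. The median depth was 1668 UMIs for nuclei without a marker, 1141 for those with 1 or 2 and 3071 for those with 3 or more, so nuclei with 3 or more markers were the deepest and those with 1 or 2 the shallowest. Siglech, a receptor of plasmacytoid dendritic cells, had 113 UMIs in 20 of the nuclei without a marker, 47 UMIs in 5 of those with 1 or 2 and 5 UMIs in 1 of those with 3 or more, that is 582, 154 and 2.02 CPM. Flt3, a receptor of dendritic cells and their precursors, was at 453, 160 and 1.62 CPM. Xcr1, a marker of cross-presenting dendritic cells, was at 72.1, 29.4 and 0.808 CPM. Clec9a, also on the dendritic list, was less confined, at 412, 356 and 248 CPM. Of its 802 UMIs, 613 were in nuclei with 3 or more markers, and its reads may be shared with Clec1b. The monocyte receptor Ccr2 was at 180, 216 and 3.23 CPM, and Cd74 at 880 (171 UMIs), 706 and 256 CPM.

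Several genes high in Kupffer nuclei and not among the 6 markers went the other way. Mertk was at 92.7 CPM in nuclei without a marker, 677 in those with 1 or 2 and 2323 in those with 3 or more. Slc40a1 was at 51.5, 363 and 1916 CPM, Adgre1 at 118, 477 and 1282, and Bank1, from the B cell list, at 41.2, 258 and 922 CPM. Not every gene of the lists did so. The mean of Irf8 over mice was 213 CPM with all 919 nuclei and 142 CPM without the 80 (66.9%), and the same means were 18.1 and 8.87 CPM for Itgax, 12.6 and 7.79 for Fcgr2b and 84.5 and 75.3 for Itgb2. As sums, the scavenger list was at 345, 945 and 2944 CPM and the complement list at 474, 918 and 2286. The dendritic list was at 1549.7, 709 and 252 CPM, of which Clec9a alone held 412, 356 and 248. The antigen presentation list was at 3099, 2222 and 1263 CPM. The hepatocyte list was at 2739, 3987 and 2748 CPM. Every mouse had nuclei without a marker, from 4 to 14 of them, or 4.76% (mouse 8) to 17.3% (mouse 1) of its Kupffer nuclei.

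Thinning to 1000 UMIs kept the contrast between the nuclei with no marker and the rest. Of 815 thinned nuclei, 92 (11.3%) showed no marker, and their dendritic list was at 1435 CPM, against 264 CPM with 1 or 2 markers and 234 with 3 or more. Their scavenger list was at 543 CPM, against 2135 and 3017, and their monocyte list at 674, against 176 and 125. Fewer RNA molecules per nucleus and another kind of nucleus cannot be told apart for any single nucleus with no marker. Leaving the 80 nuclei out gave 352 genes by the rule, 321 of them among the 335, and the listed genes that dropped out were Flt3, Siglech and Ciita. The 80 are called Kupffer nuclei here only by the authors' name, and the split by markers is a description within 1 cluster, with no test.

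**Figure D3:**
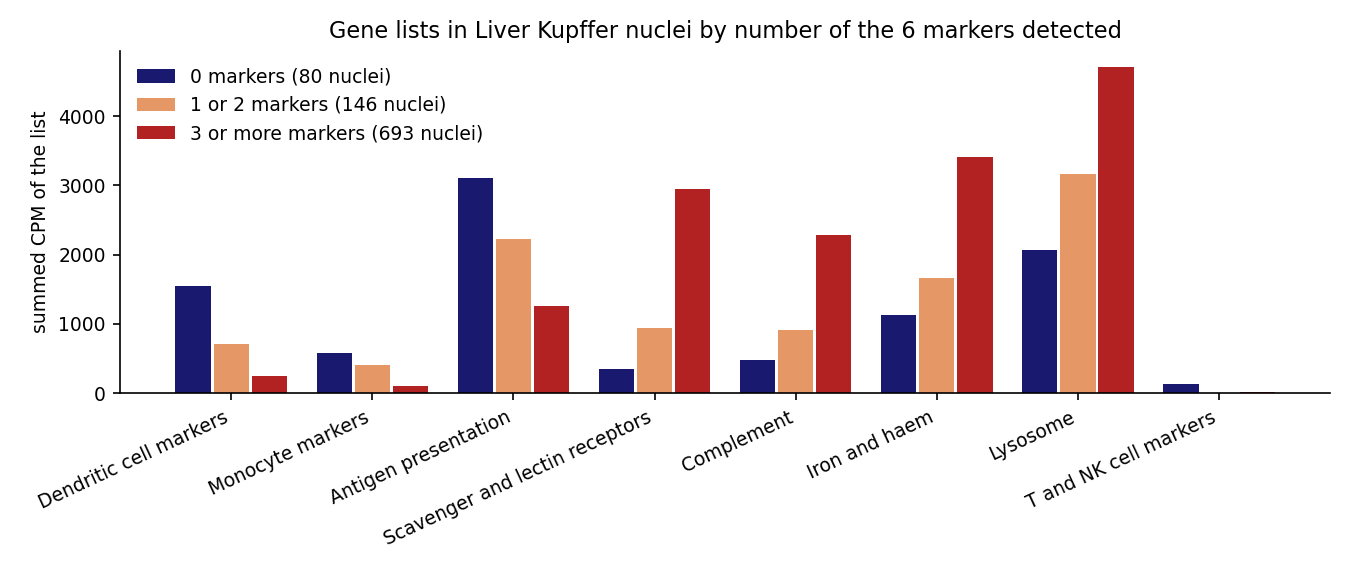
Summed CPM of 8 gene lists (vertical axis) in Liver Kupffer nuclei grouped by how many of the 6 markers had a UMI, with UMIs pooled over the 8 mice and no error bars. The dendritic, monocyte and antigen presentation lists are highest in the 80 nuclei with no marker, and the scavenger, complement, iron and lysosome lists in the 693 nuclei with 3 or more.

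Kupffer nuclei of different mice were then compared with each other. Over 13030 genes, the correlation of log2 CPM between the Kupffer nuclei of 2 mice had a median of 0.867 (28 pairs, 0.736 to 0.937). Against other types of the same mouse the median over 8 mice was 0.676 for endothelial nuclei, 0.639 for hepatocytes, 0.633 for leukocytes, 0.601 for stellate nuclei and 0.487 for biliary nuclei. The types differ in UMIs and those of 1 mouse share a pool, so the order is only a description.

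Among the genes highest in Kupffer nuclei, 5 varied most between mice on the log2 scale. Cfp ran from 13.4 to 168 CPM over the mice, with mouse 6 lowest. Pla2g15, a lysosomal phospholipase, ran from 13.4 to 116 CPM over the mice, Lpl from 17.4 to 179 CPM over the mice, and Flt3 from 12.1 to 128 CPM over the mice. Gbp2b, an interferon-induced guanylate-binding protein, ran from 66.9 to 407 CPM over the mice, with a median of 228. Mouse 6 had the fewest Kupffer nuclei (48) and UMIs (74779), so a gene at 13.4 CPM there rests on 1 UMI.

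The share of Kupffer nuclei differed widely between Liver samples. It was 2.59% in mouse 1, 10.6% in mouse 2, 7.99% in mouse 3, 5.40% in mouse 4, 4.73% in mouse 5, 1.64% in mouse 6, 3.97% in mouse 7 and 3.68% in mouse 8, with a mean of 5.08% ± 2.95 (SD, n = 8). The 95% Wilson interval of mouse 2 ran from 9.11% to 12.4% and that of mouse 6 from 1.24% to 2.16%, so counting error, the only error these intervals cover, is smaller than the gap between mice. Mice 1, 2 and 6 shared pool 6 and mice 3, 7 and 8 pool 1, so a wide spread was also seen within pools. Among nuclei named Kupffer, endothelial, stellate, leukocyte or biliary, the share was 13.8% to 27.4%, with a mean of 19.1% ± 5.02. Mice 2 and 3, with the highest shares, had the lowest median part of hashtag UMIs on their own tag, at 21.8% and 22.4%. Mouse 6, with the lowest share, was at 32.9%. Mouse 8, highest on this measure at 62.5%, had a share of 3.68%. Fewer Kupffer cells in a piece, fewer of their nuclei recovered and nuclei assigned to the wrong sample cannot be told apart.

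In Cell Suspension the share was 2.75% ± 1.70 (SD, n = 8), lower than in Liver in 6 of 8 mice. The difference of -2.33 percentage points was within the spread between samples (two-sided exact permutation test, p = 0.0698). Without mouse 7 it was -2.83 points (p = 0.0484, exact permutation test). Among nuclei named Kupffer, endothelial, stellate, leukocyte or biliary, the Cell Suspension share was 21.2% ± 7.95, 2.10 points above Liver (p = 0.534, exact permutation test). Nuclei under any other name were left out of that total. Within pool 6 the Liver shares of 2.59%, 10.6% and 1.64% stood beside 0.704% in Cell Suspension, and within pool 5 there was 4.73% beside 0.582%. Pool 2 held 5.40% in Liver beside 2.04% and 3.07%, and pool 1 held 7.99%, 3.97% and 3.68% beside 5.11%, while pools 3 and 4 held no Liver sample. Cell Suspension shares were highest in mice 7 and 2 (5.11% and 4.99%), where the own-tag part of hashtag UMIs was lowest (17.2% and 20.3%). Mouse 4, with the lowest share (0.582%), was at 42.2%, and mouse 3, with the highest own-tag part (52.6%), had a share of 2.62%. The part of tag assignment in these shares was not tested.

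**Figure D4:**
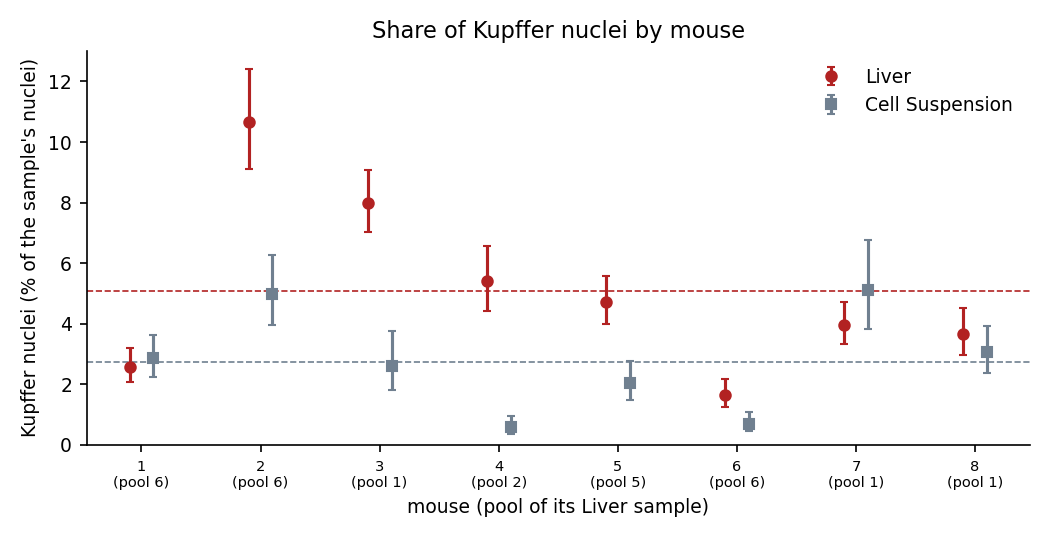
Kupffer nuclei as a percentage of all nuclei of each sample, by mouse and with the pool of the Liver sample, for Liver (circles) and Cell Suspension (squares), with 95% Wilson intervals and dashed lines at the means of the 8 samples. Liver shares run from 1.64% to 10.6% and exceed those of Cell Suspension in 6 of 8 mice.

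Measures that did not serve to name the types were compared within mice, by two-sided exact sign-flip permutation tests with Benjamini-Hochberg adjustment over the 5 other types. With 8 mice the smallest p such a test can give is 0.00781. The median UMIs per Kupffer nucleus ran from 1220.0 in mouse 6 to 3935 in mouse 5. Kupffer nuclei held 30.4% of the UMIs of hepatocyte nuclei (lower in 8 of 8 mice, adjusted p = 0.0130, exact permutation test) and 71.6% of those of stellate nuclei (8 of 8, adjusted p = 0.0130, exact). They held 81.9% of those of endothelial nuclei (lower in 7 of 8, adjusted p = 0.0391, exact) and 123% of those of leukocytes (higher in 8 of 8, adjusted p = 0.0130, exact), but among nuclei of at least 1000 UMIs neither of these differences passed. Biliary nuclei differed by less than the spread, at 88.6% (adjusted p = 0.430, exact permutation test). The endothelial difference lost its call without any 1 of mice 1, 2, 3, 4, 6, 7 or 8 (adjusted p = 0.0586 to 0.0781, exact), and only leaving out mouse 5 kept it.

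The unspliced share of UMIs, the part from RNA that still holds introns, was 72.0% ± 1.84 in Kupffer nuclei. That was 2.21 points below hepatocytes, 3.63 below endothelial, 4.82 below stellate and 2.84 below biliary nuclei, each in 8 of 8 mice (adjusted p = 0.00977 for each, exact permutation test). Leukocytes were at 71.3%, and the difference of 0.69 points was within the spread (adjusted p = 0.188, exact permutation test). Mitochondrially encoded UMIs, which come from outside the nucleus and may have entered the naming of types, made up 0.409% ± 0.0614 of Kupffer UMIs, beside 0.154% in hepatocytes, 0.240% in stellate, 0.293% in biliary and 0.367% in endothelial nuclei and 0.508% in leukocytes.

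The hashtag libraries bear on how surely a nucleus belongs to its mouse and to its sample type, since both rest on the assigned tag. Every pool with a Liver sample also held a Cell Suspension sample. The Liver name of the 919 nuclei and their comparison with Cell Suspension therefore depend on this assignment. The median part of a nucleus's hashtag UMIs that fell on its own tag was 35.2% ± 14.1 in Kupffer nuclei, with 4 tags in each pool. It ran from 21.8% in mouse 2 and 22.4% in mouse 3 to 62.5% in mouse 8. It was 18.8 points lower than in hepatocytes (8 of 8 mice, adjusted p = 0.0391, exact permutation test), and 2.14 points higher than in leukocytes (7 of 8, adjusted p = 0.0391, exact permutation test). Without any 1 mouse the differences were -19.7 to -18.2 and 1.83 to 2.47 points. Both calls were lost without any 1 mouse other than mouse 3 (adjusted p = 0.0521 to 0.0781, exact), where 7 mice allow no p under 0.0156 before adjustment. Differences from endothelial (0.889 points, adjusted p = 0.0521, exact), stellate (0.348 points, adjusted p = 0.453, exact) and biliary nuclei (-0.919 points, adjusted p = 0.453, exact) did not pass. Of the 919 barcodes, 8 (0.871%) also occurred in another pool, against 1.26% of all nuclei.

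**Figure D5:**
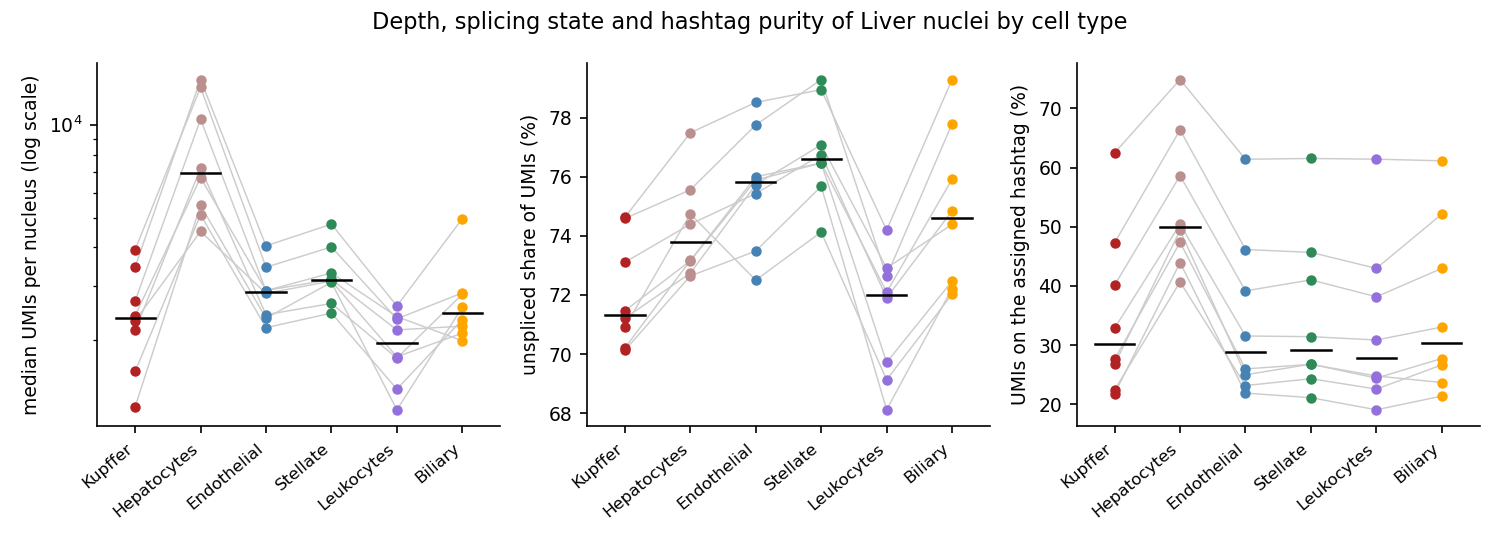
Median UMIs per nucleus (log scale), unspliced share of UMIs and median percentage of hashtag UMIs that carry the nucleus's own tag, by Liver cell type, with 1 point per mouse, grey lines joining a mouse and black bars at the median of the 8 mice. Kupffer nuclei sit below hepatocytes in all 8 mice in each panel, and beside endothelial, stellate and biliary nuclei in the hashtag panel.

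Set against the 342 Kupffer nuclei of Cell Suspension, the tissue nuclei held less RNA of early response genes, which react within minutes to stress. In edgeR's quasi-likelihood test on UMI sums per sample (8 against 8), 180 of 13819 genes passed an adjusted p of 0.05 (1.30%), 149 higher (1.08%) and 31 lower (0.224%) in Cell Suspension. On spliced UMIs alone 82 passed, 43 higher and 39 lower. With the mouse as a block 193 passed, 139 higher and 54 lower, and without mouse 1, 2 or 3 there were 77, 98 or 119. Under RLE scaling 234 passed, 222 higher and 12 lower, and the median of all genes moved from -0.17 to -0.01 on the log2 scale, so falls are counted from a shifted centre. Of 13 early response genes 12 were higher in Cell Suspension, with a median log2 change of 2.88 over the list against -0.17 over all genes. Fos rose by 4.08 ± 0.31 (log2 ± SE) from a median of 10.1 to 180 TMM-scaled CPM (edgeR adjusted p = 4.17e-13), with no overlap of the groups. Fosb rose by 5.18 ± 0.45, Jun by 3.53 ± 0.27, the chemokine gene Cxcl2 by 4.80 ± 0.49 and Rgs1, a regulator of G protein signalling, by 3.78 ± 0.29. The 6 Kupffer markers, by which nuclei of both sample types were named, had fitted log2 changes of -0.33 to 0.10, given as a description. The libraries also differed in quality measures, since the unspliced share of Kupffer UMIs was 66.2% (62.6% to 68.9%) in Cell Suspension and 72.0% (70.1% to 74.6%) in Liver, with no overlap, and the mitochondrial share was 0.717% and 0.409%. The part of these in the gene changes was not tested.

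Siglech was among the falls. It went from 27.1 to 174 TMM-scaled CPM in Liver to 0 to 47.6 in Cell Suspension (log2 change -2.08 ± 0.50, edgeR adjusted p = 0.0181), and it was found in 26 of 919 Kupffer nuclei of Liver and 4 of 342 of Cell Suspension. Over the alternatives run its adjusted p ranged from 0.000117 to 0.159. Nuclei with no Kupffer marker made up 8.71% of the Liver nuclei and 9.36% of the 342. Aven, an apoptosis inhibitor, fell by 1.40 ± 0.31 (edgeR adjusted p = 0.00813, 0.000633 to 0.129 over the alternatives) and Tcf4, a transcription factor, by 1.01 ± 0.21 (edgeR adjusted p = 0.00406, 7.13e-05 to 0.246 over the alternatives).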

How the data were processed

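Nuclei of 24 samples (8 mice, 3 sample types) were measured in 6 pools, and each pool gave an RNA library and a library of hashtags. Reads were quantified by the authors with Salmon Alevin and Alevin-fry against a spliced and unspliced transcriptome made from GRCm38, after base calling with bcl2fastq 2.19.0. Raw UMI counts were deposited for each gene in each barcode, with spliced, unspliced and ambiguous RNA kept apart, together with raw hashtag counts. The authors' table of nuclei gives the sample type, mouse, pool, cluster and cell type of each nucleus after their hashtag assignment and doublet removal with scDblFinder, and it was used as it stands, with no further filter or doublet caller. Mouse and sample type came from that table, since the labels name only pools, and the hashtag CD2 was taken to mean mouse 2 in Cell Suspension. Pools held 65916544 to 113267737 UMIs, and Kupffer nuclei of 1 Liver sample 74779 to 837797.

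The 3 splicing states were added and UMIs summed per sample and cell type, scaled to CPM. Means are over mice, so that each mouse weighs the same. Mouse and type pairs under 10 nuclei were left out of paired tests. The share of nuclei and the measures per nucleus were compared by two-sided exact permutation tests. Sums of Kupffer nuclei in Liver and Cell Suspension were tested with edgeR 4.0.16 (quasi-likelihood, TMM, genes with at least 10 counts, Benjamini-Hochberg adjustment over 13819 genes), with DESeq2 1.42.0 as an alternative. Counts were simulated for this comparison with 200 of 13819 genes changed, all drawn from the better expressed genes. In them 99.5% of changes of log2 2 and 52% of changes of log2 1 were recovered, with 19 and 7 unchanged genes called. Recovery among weakly expressed genes was not tested. Following the study's methods, Liver and Cell Suspension were compared without a term for the mouse, and the fit with the mouse as a block is an alternative. Same-numbered samples are from 1 mouse, as the study describes. The deviations of their Kupffer sums from the group means correlated at -0.191 to 0.374 over 4642 genes.

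Any member of 26 gene lists (203 genes, 202 matched) could be named, with the 20 genes of largest ratio and the 5 most variable among those highest in Kupffer nuclei, and the 5 largest rises and falls of the edgeR test with at least 50 CPM in a group and no overlap between groups, of which only 2 falls qualified. The members and lists were chosen with earlier results of these data known. Gene coordinates are those of GRCm38, and promoters are from RefSeq (GRCm38.p6). The alternatives are given in the closing section. Intervals cover counting error only. Cell names rest on 1 annotation, and the bulk RNA and protein data of the study were not analysed here. A few genes are not reported here.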

Additional observations from a re-analysis of the deposited data

Results flagged for a closer look

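Over the 8 Liver samples, 71 values (CPM of genes and measures of the Kupffer nuclei) were checked for a sample far from the others. This found 4, and chance gives about 1 in 20, so the number is near that of chance. Nr1h3 was at 116 CPM in mouse 1, against 187 to 245 in the other mice. In mouse 6, which had the fewest Kupffer nuclei, Fcer1g was at 26.7 CPM, against 91.8 to 148 in the other mice, and Cd86 was at 254 CPM, against 418 to 528. Siglech was high in the same mouse, at 187 CPM against 25.1 to 80.6, and this value rests on 2 of its 48 Kupffer nuclei, the only ones there with a UMI of Siglech.

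Nuclei with the Kupffer name also lie in samples that the comparisons above do not use. The authors' table names 77 nuclei of Primary Hepatocytes Kupffer cells, in all 8 mice and with 3 to 22 in each, which is 0.116% to 0.991% of the nuclei of a sample. Of these, 30 (39.0%) held none of the 6 markers, against 8.71% in Liver, at a median of 1576 UMIs per nucleus against 2740. None of the 77 held a UMI of Siglech. The paper reports Kupffer cells as absent from the cultures. For hepatocyte and endothelial nuclei of the cultures that resembled tissue cells, it names wrong sample assignment as a possibility. Each pool with a Primary Hepatocytes sample also held a Cell Suspension sample, and the own-tag part of hashtag UMIs was 24.0% to 40.4% over the samples. Kupffer cells left in culture and nuclei assigned to the wrong sample cannot be told apart here.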

How the results depend on the processing

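Of the values compared with an alternative, the Kupffer share in Liver against Cell Suspension turned direction, to 2.10 percentage points, with another total. That total held only nuclei named Kupffer, endothelial, stellate, leukocyte or biliary. Over all nuclei the difference ran from -2.83 to -1.86 points when 1 mouse was left out. With the mouse as a block (samples paired by mouse) the difference of -2.33 points had p = 0.0625 (exact permutation test), and 193 genes passed in edgeR in place of 180, 139 higher and 54 lower with 145 shared. The block was run only for the share and the edgeR test. Among nuclei of at least 1000 UMIs the log2 ratio of UMIs was -0.23 against endothelial nuclei and 0.24 against leukocytes, neither past the threshold, and the mitochondrial share was 0.0309 points above endothelial nuclei. With the mean in place of the median, the hashtag share was 1.38 points above leukocytes. Leaving out 1 mouse gave -0.36 to -0.19 for the log2 ratio of UMIs to endothelial nuclei, 0.0327 to 0.0499 points and -0.121 to -0.0747 points for the mitochondrial share against endothelial nuclei and leukocytes, and -19.7 to -18.2 and 1.83 to 2.47 points for the hashtag share against hepatocytes and leukocytes. With 7 mice the smallest p is 0.0156. The genes highest in Kupffer nuclei numbered 194 at 4 times the next type and 174 on spliced UMIs alone (140 of them among the 335), and 327 to 365 without 1 mouse. The edgeR count was 86 after filterByExpr, 300 for genes with a count of at least 1, 82 on spliced UMIs alone (43 higher and 39 lower in Cell Suspension, against 149 and 31) and 93 on unspliced UMIs alone (72 and 21), with fewer or more genes tested, and 77 to 219 without 1 mouse, the counts without mouse 1, 2 and 3 being 77, 98 and 119. DESeq2 called 192. Nuclei with at least 1 marker, an alternative chosen after seeing the data, gave 156. The cause of the other shifts was not tested. Depth limits genes near 13.4 CPM in mouse 6, where that is 1 UMI.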

Other observations

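Sensors and effectors outside the lists were also found among the 335 genes highest in Kupffer nuclei, and the genes in this paragraph and the next were chosen after their values were seen. Naip1, Naip2, Naip5 and Naip6, receptors for bacterial flagellin and needle proteins, were at 61.9 ± 11.1 CPM, 151 ± 34.0 CPM, 134 ± 22.7 CPM and 166 ± 53.2 CPM (SD, n = 8 for each), and Nlrc4, their partner in the inflammasome, was at 66.5 ± 29.8 CPM. The next type was the endothelium for Naip2, Naip5 and Naip6, at 58.5, 32.0 and 20.3 CPM. The Naip genes are near-identical neighbours, so the split of reads between them is uncertain. Cybb, the catalytic chain of the phagocyte NADPH oxidase, was at 349.9 ± 76.6 CPM, against 56.7 CPM in leukocytes. Inhibitory receptors included Sirpa at 557 ± 106 CPM, Lair1 at 501 ± 90.7 CPM and Cd300a at 271 ± 34.8 CPM, the last with 6 UMIs in leukocytes, the next type.

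Other genes of the 335 act on lipids or carry ions. Pla2g4a, the cytosolic phospholipase that frees arachidonic acid, was at 461 ± 102 CPM, against 30.8 CPM in biliary nuclei. Ptgs1, a cyclooxygenase, was at 321 ± 28.2 CPM, Tbxas1, thromboxane synthase, at 427 ± 87.5 CPM and Hpgds, a prostaglandin D synthase, at 127 ± 34.6 CPM. Hpgd, which inactivates prostaglandins, was at 668 ± 151 CPM, 5.28 times the endothelial mean. Mitf, a regulator of lysosomal and melanocyte genes, was at 788 ± 94.2 CPM, against 156 CPM in biliary nuclei. A pair of further potassium channels, Kcnk13 at 439 ± 45.1 CPM and Kcnj16 at 441 ± 119 CPM, had 11 and 7 UMIs in leukocytes, their next type.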
